A study of Mus musculus with 17 samples.

Results

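The genes described here are receptors that guide blood cells to marrow, thymus and other tissues. They are the chemokine receptors Cxcr2, Cxcr4, Cxcr3, Cxcr6, Ccr2, Ccr7, Ccr9 and Cx3cr1, and S1pr1, a receptor for the lipid sphingosine 1-phosphate. These 9 genes were chosen by name, and a gene was taken as measured where the array annotation gave a probe set with that symbol alone. That held for 7 of the 9 genes, among 17097 genes named in the same way, and where a gene had several probe sets the one with the highest mean over the 17 arrays stands for it. The annotation used here lists no probe set for Cxcr4 or Ccr7, and both were not analysed here. Of the 7 measured genes, 6 had a highest group mean above 3.83, the median of all values on the arrays, and were tested. Cxcr6 did not, and Ccr9 passed through 1 group alone.

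Values are RMA expression values on the log2 scale from Affymetrix mouse arrays, so each difference below is a log2 difference. In 3 groups the labels name myeloid spleen cells of leukemic mice, sorted as positive for CD11b and Gr1 and negative for CD3, CD4 and CD8. The recipients were 4 to 8 weeks old, had been irradiated with 4.5 to 6 Gy and had received transplants of Myc- and Bcl2-transformed cells. The transformed cells came from wildtype C57/Bl6 donors carrying CD45.2 and were of 3 kinds. LSK cells, a marrow fraction rich in stem cells, gave 3 arrays, DN2 cells, thymic T-cell precursors without CD4 and CD8, gave 5, and granulocyte-macrophage progenitors of the marrow, called GMP, gave 5. The healthy groups were thymic DN2 cells (2 arrays) and marrow GMP (2 arrays), also wildtype C57/Bl6, with no age given in the labels. The sort named in the labels holds no marker of donor cells, so host myeloid cells could enter it. The labels do not say whether arrays of a group came from separate mice or separate transformations, so p-values measure the spread between these samples, which may be technical.

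Chemokine receptors are G-protein-coupled receptors that move cells along gradients of chemokines. In marrow, Cxcr4 and its ligand Cxcl12 retain haematopoietic cells, whereas Cxcr2 and its ligands Cxcl1 and Cxcl2 draw mature neutrophils into blood. Ccr2 lets monocytes leave the marrow, and Ccr9 and Ccr7 guide progenitors into the thymus. Cxcr3 takes activated T cells and NK cells to tissues that make Cxcl9 and Cxcl10, and S1pr1 lets lymphocytes leave the thymus and lymph nodes.

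Several arrays went against their labels at the RNA level. Cd3e, a CD3 chain that the sort excluded as protein, was 7.79 to 9.06 in the DN2-labelled leukemias against 5.00 to 5.34 in the LSK-labelled and GMP-labelled ones. Itgam, which encodes CD11b, was 7.17 and 7.38 in DN2-labelled arrays 1 and 3 and 3.24 to 3.47 in the other 3 arrays of that label. The labels name Myc as the transgene without saying which Myc family gene it was. Mycn, high in the other leukemias (11.58 to 13.15), was 4.91 and 4.22 in LSK-labelled arrays 2 and 3, beside 3.96 to 4.58 in the healthy groups. Bcl2, the other transgene, was also low in LSK-labelled arrays 2 and 3, at 6.75 and 5.27. It was 9.25 to 11.53 in the other leukemias and 5.89 to 6.99 in the healthy groups. RNA from the Y chromosome was high in the 3 LSK-labelled arrays and in 1 array each of the other leukemia labels. Directions below are for arrays with a given label. Receptor results that rest on the arrays in doubt are given with and without them. For the other gene lists only counts or medians over a list are given without them.

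The receptor genes separated the groups into distinct patterns. Cxcr2 was high in the LSK-labelled and GMP-labelled leukemias, Cxcr3 and S1pr1 in the DN2-labelled leukemias, and Ccr9 in healthy DN2 cells. Ccr2 and Cx3cr1 had their highest means in the LSK-labelled leukemias. Ccr2 was also high in healthy GMP, and Cx3cr1 in DN2-labelled arrays 1 and 3. Between the DN2-labelled and GMP-labelled leukemias limma called 3 of the 6 genes tested, 2 higher and 1 lower, where 39.8% of the 11629 genes tested were called, 21.0% higher and 18.8% lower. Over the 6 genes the median difference was 0.88 and the median absolute difference 2.63, against 0.03 and 0.42 over all genes tested. Calls throughout are those with an adjusted p under 0.05.

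**Figure D1:**
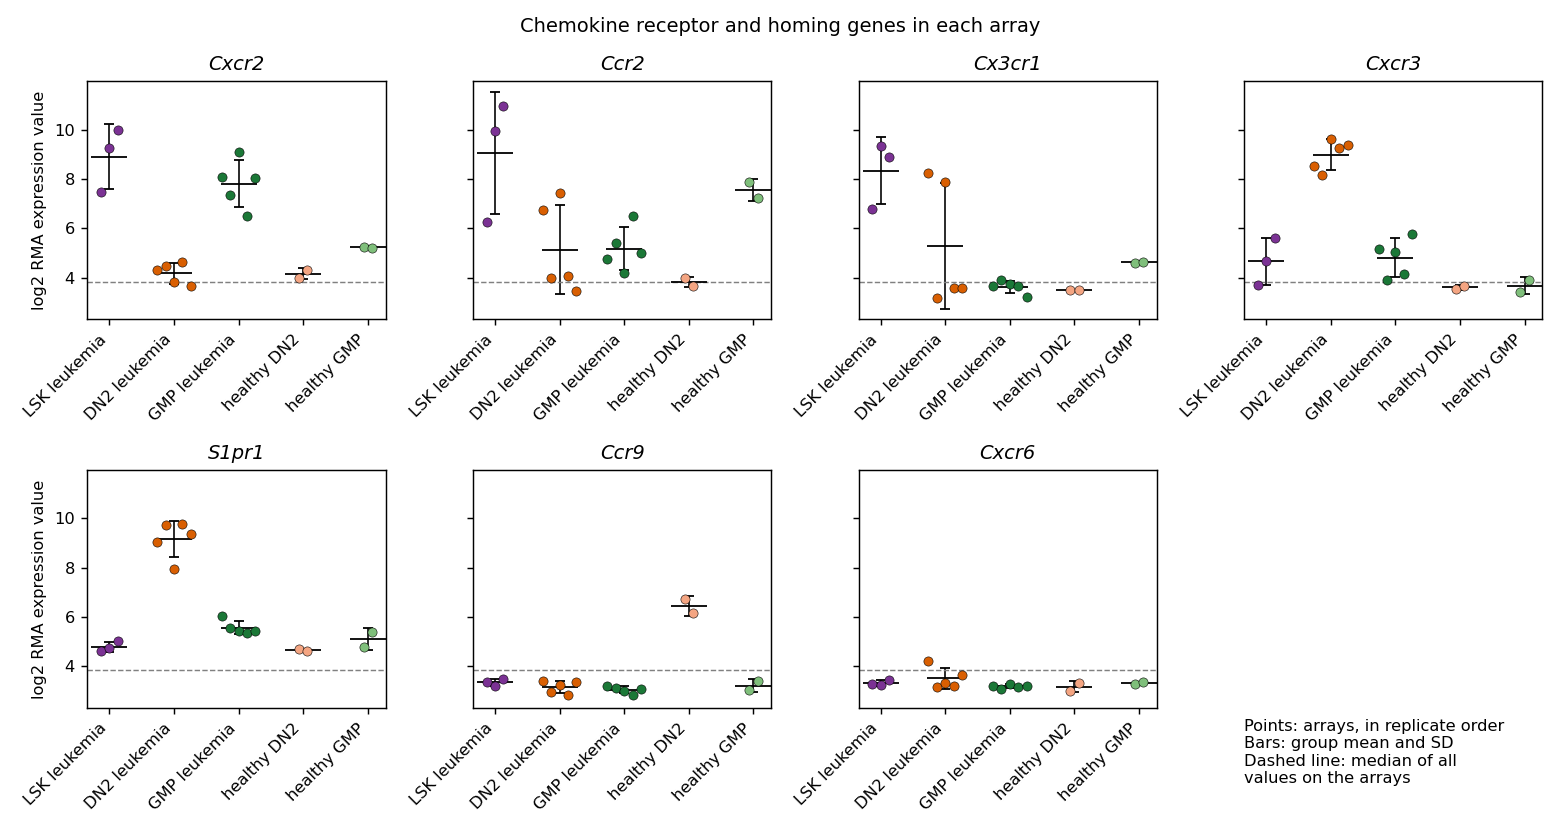
Each panel plots 1 gene, with the log2 RMA expression value of every array (points, in replicate order) by group, the group mean and SD (bars) and the median of all values on the arrays, 3.83 (dashed line). Cxcr2 is high in the LSK-labelled and GMP-labelled leukemias, Cxcr3 and S1pr1 in all 5 DN2-labelled arrays, and Ccr9 in the 2 healthy DN2 arrays.

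The bases just upstream of 5 of these genes are shown because each of the 5 was called in at least 1 comparison and has a RefSeq promoter entry. S1pr1 was called too and is named only. Each sequence is the 250 bases before the annotated start in GRCm38.p6, read 5′ to 3′ on the strand of the gene. Capitals mark matches to 5 short motifs searched on both strands: AGGTGTGA (T-box factors), TGTGGT (Runx), GAGGAAGT (Spi1), TTGCGCAA (C/EBP) and CACCTG (E proteins). The T-box motif and the reverse complement of the E protein motif share the letters AGGTG.
Cxcr2 promoter, chr1:74153744-74153993, plus strand: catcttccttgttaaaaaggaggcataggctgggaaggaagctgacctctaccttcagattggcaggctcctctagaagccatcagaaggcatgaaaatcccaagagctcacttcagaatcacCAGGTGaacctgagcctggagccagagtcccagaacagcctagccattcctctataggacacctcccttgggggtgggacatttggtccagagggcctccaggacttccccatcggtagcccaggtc
Ccr2 promoter, chr9:124101933-124102182, plus strand: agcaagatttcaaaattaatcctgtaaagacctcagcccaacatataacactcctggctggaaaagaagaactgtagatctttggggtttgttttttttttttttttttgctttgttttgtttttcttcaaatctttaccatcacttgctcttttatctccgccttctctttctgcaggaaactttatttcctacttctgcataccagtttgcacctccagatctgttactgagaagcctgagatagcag
Cx3cr1 promoter, chr9:120068297-120068546, minus strand: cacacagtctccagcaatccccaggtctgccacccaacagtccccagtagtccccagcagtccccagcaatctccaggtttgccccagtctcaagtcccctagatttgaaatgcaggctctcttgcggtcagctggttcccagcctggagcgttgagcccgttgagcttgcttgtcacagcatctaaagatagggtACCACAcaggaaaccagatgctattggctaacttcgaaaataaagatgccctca
Cxcr3 promoter, chrX:101734148-101734397, minus strand: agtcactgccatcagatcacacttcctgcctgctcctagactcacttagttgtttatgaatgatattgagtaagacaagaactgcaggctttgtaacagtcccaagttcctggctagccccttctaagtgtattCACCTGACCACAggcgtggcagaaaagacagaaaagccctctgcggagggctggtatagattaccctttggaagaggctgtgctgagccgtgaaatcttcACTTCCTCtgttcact
Ccr9 promoter, chr9:123766961-123767210, plus strand: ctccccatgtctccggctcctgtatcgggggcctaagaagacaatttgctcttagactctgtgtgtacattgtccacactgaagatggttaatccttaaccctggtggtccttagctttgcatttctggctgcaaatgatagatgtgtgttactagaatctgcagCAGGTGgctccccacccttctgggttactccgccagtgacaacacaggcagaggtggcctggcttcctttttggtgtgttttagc

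Among 32851 promoter windows of this length, 17.2% held the E protein motif, 14.0% the Runx motif, 2.44% the Spi1 motif, 1.12% the T-box motif and 0.164% the C/EBP motif. The Cxcr3 window held an E protein match on the gene's strand at -116 to -111 from the start, and a Runx match on the other strand directly after it at -110 to -105. It also held a Spi1 match on the other strand at -16 to -9. Cxcr2 had 1 E protein match, at -127 to -122, Ccr9 had 1 at -85 to -80, and Cx3cr1 had 1 Runx match at -54 to -49, each on the other strand. The Ccr2 window held no match to the 5 motifs. A match describes the sequence and is not a measured binding site.

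Cxcr2, the neutrophil receptor for Cxcl1 and Cxcl2, was high in the LSK-labelled and GMP-labelled leukemias and close to background in the DN2 groups. It was 7.46, 9.27 and 10.00 in the LSK-labelled arrays and 8.09, 7.35, 9.10, 6.49 and 8.05 in the GMP-labelled arrays. In the DN2-labelled arrays it was 4.29, 4.48, 3.83, 4.63 and 3.66, in healthy DN2 4.00 and 4.32, and in healthy GMP 5.25 and 5.21. Every LSK-labelled and GMP-labelled leukemia array lay above every array of the other 3 groups, and the LSK-labelled and GMP-labelled arrays overlapped each other, as did the DN2-labelled and healthy DN2 arrays.

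Between the DN2-labelled and GMP-labelled leukemias Cxcr2 differed by -3.64 ± 0.47 (SE, n = 5 and 5, limma adjusted p = 2.21e-05), a 12.5-fold lower level. Against the LSK-labelled leukemias the difference was -4.73 ± 0.55 (n = 5 and 3, adjusted p = 9.48e-06). Cxcr2 also separated the GMP-labelled leukemias from their healthy counterpart. It was 2.58 ± 0.63 higher than in healthy GMP (n = 5 and 2, adjusted p = 0.00989), a 5.99-fold rise. That rise was the single call among the 6 genes in this comparison, where 21.2% of all genes tested were called, 8.08% higher and 13.1% lower, and where the median over all genes was -0.12. Without healthy GMP array 1 or 2 it was 2.61 and 2.56 and was not called (adjusted p = 0.0838 and 0.0921). In bulk samples, fewer cells of a type and less RNA per cell cannot be told apart.

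The LSK-labelled and GMP-labelled leukemias differed in Cxcr2 by 1.09 ± 0.55 (95% confidence interval -0.08 to 2.27, adjusted p = 0.157). Without LSK-labelled array 1 the difference was 1.82 and was called (adjusted p = 0.0139), it was also called with array weights (1.13, adjusted p = 0.036), and it was -0.36 without LSK-labelled arrays 2 and 3. DN2-labelled leukemias and healthy DN2 differed by 0.01 ± 0.63 (interval -1.33 to 1.36, adjusted p = 0.991). The mean over 7 of 9 neutrophil marker genes moved with Cxcr2. It was 12.26 to 13.81 in the LSK-labelled, 13.15 to 13.79 in the GMP-labelled and 3.50 to 5.62 in the DN2-labelled leukemias, 7.86 and 8.02 in healthy GMP and 3.49 and 3.68 in healthy DN2. In DN2-labelled array 2, 0 of the 7 markers exceeded the median of all values, and the part of neutrophil content in the Cxcr2 differences was not tested.

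Ccr2, the receptor for Ccl2 that monocytes use to leave marrow, was highest in the LSK-labelled leukemias and in healthy GMP. Its values were 6.26, 9.95 and 10.96 in the LSK-labelled arrays and 7.86 and 7.25 in healthy GMP. The GMP-labelled leukemias had 4.76, 5.41, 4.19, 6.51 and 5.00, the DN2-labelled ones 6.75, 3.99, 7.42, 4.07 and 3.45, and healthy DN2 3.97 and 3.67. LSK-labelled arrays 2 and 3 stood above all other arrays, LSK-labelled array 1 lay within the range of the GMP-labelled leukemias, and DN2-labelled arrays 1 and 3 stood above the other 3 of their label. In the order of the means, LSK-labelled leukemias and healthy GMP overlapped, healthy GMP lay above the GMP-labelled leukemias, and these overlapped the DN2-labelled ones, which overlapped healthy DN2.

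The LSK-labelled leukemias exceeded the GMP-labelled ones in Ccr2 by 3.88 ± 1.03 (SE, n = 3 and 5, adjusted p = 0.0119) and the DN2-labelled minus LSK-labelled difference was -3.92 ± 1.03 (n = 5 and 3, adjusted p = 0.006). Both calls rested on LSK-labelled arrays 2 and 3, the arrays with low Mycn and Bcl2. With LSK-labelled array 1 by itself, whose spread is then taken from the other groups, the differences were 1.09 (adjusted p = 0.651) and -1.13 (adjusted p = 0.556). Leaving out array 2 or 3 by itself also ended the call against the GMP-labelled leukemias (adjusted p = 0.0662 and 0.0775). Between the DN2-labelled and GMP-labelled leukemias Ccr2 differed by -0.04 ± 0.89 (interval -1.94 to 1.87, adjusted p = 0.981). Without DN2-labelled arrays 1 and 3, the higher ones of that label, the difference was -1.34 and was not called.

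In the healthy cells the DN2 minus GMP difference in Ccr2 was -3.73 ± 1.41 (n = 2 and 2), without overlap of the arrays. It was not called with all groups in the fit, which share 1 estimate of the spread (adjusted p = 0.113). The SD of Ccr2 was 2.47 in the LSK-labelled and 1.81 in the DN2-labelled leukemias, against 0.21 in healthy DN2 and 0.44 in healthy GMP, and fitted on the healthy arrays alone the difference had an SE of 0.23 and was called (adjusted p = 0.00012). The GMP-labelled leukemias were likewise below healthy GMP in every array, by -2.38 ± 1.18, which was not called with all groups in the fit (adjusted p = 0.166) and was called with those groups alone (SE 0.57, adjusted p = 0.0307). At the other 3 Ccr2 probe sets these 4 differences had the same sign, with LSK-labelled minus GMP-labelled differences of 3.81, 2.71 and 2.46.

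Cx3cr1, the receptor for the membrane-bound chemokine Cx3cl1 on patrolling monocytes and cytotoxic lymphocytes, was high in the LSK-labelled leukemias and in a subset of DN2-labelled arrays. It was 6.79, 9.33 and 8.87 in the LSK-labelled arrays. The DN2-labelled arrays split, with 8.25 and 7.87 in arrays 1 and 3 and 3.16, 3.57 and 3.59 in arrays 2, 4 and 5. In the GMP-labelled leukemias it was 3.65, 3.89, 3.73, 3.66 and 3.23, in healthy GMP 4.57 and 4.65 and in healthy DN2 3.50 and 3.50. DN2-labelled arrays 1 and 3 are the ones with Itgam at 7.17 and 7.38, and the GMP-labelled arrays lay close to the median of all values and below both healthy GMP arrays. The LSK-labelled and DN2-labelled arrays overlapped, and so did DN2-labelled leukemias and healthy GMP, next in the order of the means, and GMP-labelled leukemias and healthy DN2 at its end.

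Cx3cr1 was 4.70 ± 1.05 higher in the LSK-labelled than in the GMP-labelled leukemias (SE, n = 3 and 5, adjusted p = 0.00455) without overlap of the arrays. The DN2-labelled leukemias were below the LSK-labelled ones by -3.05 ± 1.05 (n = 5 and 3, adjusted p = 0.0269). With LSK-labelled array 1 alone these were 3.16 (adjusted p = 0.234) and -1.50 (adjusted p = 0.529). The call against the DN2-labelled leukemias also ended without LSK-labelled array 2 or 3 (adjusted p = 0.113 and 0.0913) and without DN2-labelled array 2, 4 or 5 (adjusted p = 0.0621, 0.0622 and 0.058). Fitted on those groups alone, its adjusted p was 0.106. Against the GMP-labelled leukemias the DN2-labelled ones differed by 1.65 ± 0.91 (interval -0.29 to 3.59, adjusted p = 0.171), and by -0.20 without DN2-labelled arrays 1 and 3. A second Cx3cr1 probe set was lower throughout, with a LSK-labelled mean of 4.43 and a LSK-labelled minus GMP-labelled difference of 1.06.

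Ccr2 and Cx3cr1 were the 2 calls, both higher, among the 6 genes between the LSK-labelled and GMP-labelled leukemias, where 26.7% of all genes tested were called, 10.3% higher and 16.5% lower. The 5 calls between the DN2-labelled and LSK-labelled leukemias, 3 lower and 2 higher, stand beside 47.4% of all genes, 28.3% higher and 19.1% lower, and a median over all genes of 0.11. Without LSK-labelled arrays 2 and 3 limma called 0 of the 6 against the GMP-labelled leukemias, with 0 at an unadjusted p under 0.05, and 3 of the 6 between the DN2-labelled and LSK-labelled leukemias. The means over 6 of 8 monocyte markers were 8.70, 11.43 and 11.13 in LSK-labelled arrays 1 to 3, 6.56 to 8.88 in the GMP-labelled and 4.05 to 7.10 in the DN2-labelled leukemias, 8.25 and 8.34 in healthy GMP and 5.20 and 5.45 in healthy DN2. The highest DN2-labelled value was that of array 1. Over 6 of 7 dendritic cell markers the mean was 6.60 to 8.55 in the LSK-labelled arrays, 7.50 and 5.89 in DN2-labelled arrays 1 and 3, 3.62 to 4.83 in the other DN2-labelled arrays and 4.19 to 5.48 in the GMP-labelled arrays. The part of these cell types in the Ccr2 and Cx3cr1 differences was not tested. With a covariate for Y-linked RNA neither gene lost a call. Y-linked RNA was high in every LSK-labelled array and in 1 array each of the other leukemia labels. The covariate rests on those single arrays and cannot decide the part of the sex of the cells.

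**Figure D2:**
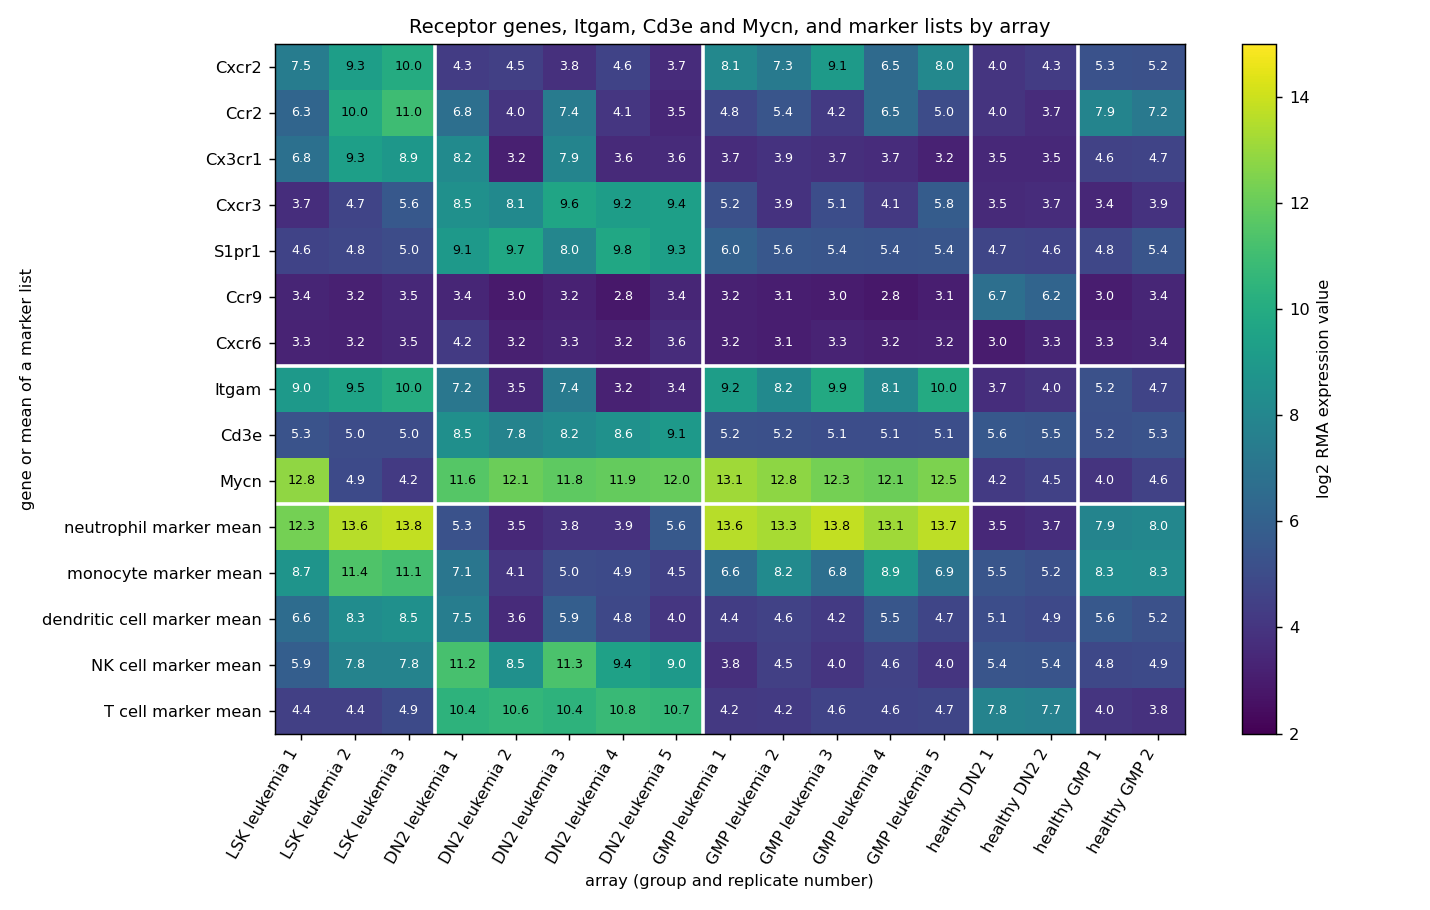
Rows are the 7 receptor genes, Itgam, Cd3e and Mycn, and the mean of 5 marker lists, columns are the 17 arrays by group and replicate, and colours and printed numbers are log2 RMA expression values, to be compared along a row. Ccr2 and Cx3cr1 are high in LSK-labelled arrays 2 and 3, in which Mycn is low, and Cx3cr1 is high in DN2-labelled arrays 1 and 3, in which Itgam is high.

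Cxcr3, the receptor for Cxcl9, Cxcl10 and Cxcl11 on activated T cells and NK cells, was high in the DN2-labelled leukemias. All 5 of their arrays were high, at 8.51, 8.15, 9.64, 9.24 and 9.36. It was 3.70, 4.66 and 5.60 in the LSK-labelled and 5.18, 3.90, 5.06, 4.14 and 5.78 in the GMP-labelled arrays, 3.53 and 3.67 in healthy DN2 and 3.43 and 3.91 in healthy GMP. The DN2-labelled arrays overlapped no other group, and each of the other 4 groups overlapped its neighbour in the order of the means.

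Cxcr3 exceeded healthy DN2 by 5.38 ± 0.54 in the DN2-labelled leukemias (SE, n = 5 and 2, adjusted p = 4.09e-06). No fold is given, since both healthy DN2 arrays lay below the median of all values, at background. It exceeded the GMP-labelled leukemias by 4.17 ± 0.41 (n = 5 and 5, adjusted p = 1.28e-06, 18.0-fold) and the LSK-labelled ones by 4.32 ± 0.48 (n = 5 and 3, adjusted p = 5.82e-06). The GMP-labelled leukemias differed from healthy GMP by 1.14 ± 0.54 (interval -0.03 to 2.30, adjusted p = 0.151), which was called with array weights (1.54, adjusted p = 0.002). LSK-labelled and GMP-labelled leukemias differed by -0.15 ± 0.48 (interval -1.17 to 0.86, adjusted p = 0.854).

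Cxcr6, the receptor for Cxcl16 on NKT and resident T cells, stayed at background level. It was 3.30, 3.22 and 3.46 in the LSK-labelled, 4.22, 3.16, 3.34, 3.21 and 3.63 in the DN2-labelled and 3.09 to 3.30 in the GMP-labelled arrays, 3.01 and 3.32 in healthy DN2 and 3.27 and 3.35 in healthy GMP. Just 1 of the 17 arrays, DN2-labelled array 1, exceeded the median of all values, and the second Cxcr6 probe set reached at most 3.52. All groups overlapped their neighbours in the order of the means.

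S1pr1, the receptor for sphingosine 1-phosphate that lets lymphocytes exit lymphoid organs, had the same order as Cxcr3 at the top. Its DN2-labelled values were 9.06, 9.73, 7.95, 9.75 and 9.35. In the LSK-labelled arrays it was 4.61, 4.76 and 5.01, in the GMP-labelled arrays 6.02, 5.55, 5.45, 5.37 and 5.42, in healthy DN2 4.70 and 4.63 and in healthy GMP 4.77 and 5.41. Unlike the DN2-labelled arrays, which overlapped no other group, the remaining groups lay within 4.61 to 6.02 and overlapped their neighbours in the order of the means, and every array of the 17 exceeded the median of all values.

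S1pr1 was 4.51 ± 0.38 higher in the DN2-labelled leukemias than in healthy DN2 (SE, n = 5 and 2, adjusted p = 5.38e-07, 22.7-fold). Their excess over the GMP-labelled leukemias was 3.61 ± 0.29 (n = 5 and 5, adjusted p = 1.21e-07, 12.2-fold), and that over the LSK-labelled ones 4.38 ± 0.33 (n = 5 and 3, adjusted p = 1.3e-07). The LSK-labelled arrays lay below the GMP-labelled ones without overlap, by -0.77 ± 0.33, which was not called (adjusted p = 0.0983) and was called on those groups alone (adjusted p = 0.0377). GMP-labelled leukemias and healthy GMP differed by 0.47 ± 0.38 (interval -0.34 to 1.28, adjusted p = 0.409).

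The means of the T-cell and NK-cell marker lists were highest where Cxcr3 and S1pr1 were, in the DN2-labelled leukemias. They did not follow these genes in every other group, and not every marker was highest there. The mean over the 8 T-cell markers was 10.39 to 10.79 in the DN2-labelled leukemias, 4.17 to 4.69 in the GMP-labelled and 4.44 to 4.93 in the LSK-labelled ones, 7.73 and 7.83 in healthy DN2 and 3.85 and 4.01 in healthy GMP. Healthy DN2 cells had T-cell marker RNA with Cxcr3 at 3.53 and 3.67 and with the lowest S1pr1 mean of the 5 groups, 4.66. Over the 7 NK markers the mean was 8.54 to 11.31 in the DN2-labelled, 5.90 to 7.83 in the LSK-labelled and 3.76 to 4.58 in the GMP-labelled leukemias, 5.40 and 5.41 in healthy DN2 and 4.84 and 4.94 in healthy GMP. The NK means of the LSK-labelled arrays lay above those of the GMP-labelled ones, while neither Cxcr3 nor S1pr1 was higher there. The part of T or NK cells in the Cxcr3 and S1pr1 differences was not tested. Without DN2-labelled arrays 1 and 3, which have Itgam RNA and the highest NK means, both genes were still called as higher than in the LSK-labelled leukemias, the GMP-labelled leukemias and healthy DN2.

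Ccr9, the receptor for the thymic and gut chemokine Ccl25, was above background in healthy DN2 cells alone among the 5 groups. It was 6.75 and 6.18 there. In the leukemias it was 3.36, 3.21 and 3.50 (LSK-labelled), 3.40, 2.95, 3.23, 2.84 and 3.38 (DN2-labelled) and 3.20, 3.11, 3.01, 2.82 and 3.10 (GMP-labelled), and in healthy GMP it was 3.03 and 3.40. The 15 arrays outside healthy DN2 lay at or below 3.50, under the median of all values, so differences among them are differences at background level.

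Ccr9 fell by 3.30 ± 0.20 on the log2 scale from healthy DN2 to the DN2-labelled leukemias (SE, n = 5 and 2, adjusted p = 1.36e-08). Healthy DN2 exceeded healthy GMP by 3.25 ± 0.24 (n = 2 and 2, adjusted p = 2.58e-07). This was the 1 call among the 6 genes between the healthy groups, where 11.2% of all genes tested were called, 5.78% higher and 5.42% lower. Since Ccr9 passed the filter through healthy DN2 alone, it had to differ there, and no fold is given against groups at background. Averaged over its 4 probe sets the differences were smaller, at -1.34 and 1.37, and still called. The probe sets had healthy DN2 means of 6.46, 4.62, 3.89 and 2.99. The mean of the T-cell marker list was higher in the DN2-labelled leukemias than in healthy DN2, where Ccr9 fell, though not every marker on it rose. Between the healthy groups this mean was higher in DN2, as Ccr9 was.

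**Figure D3:**
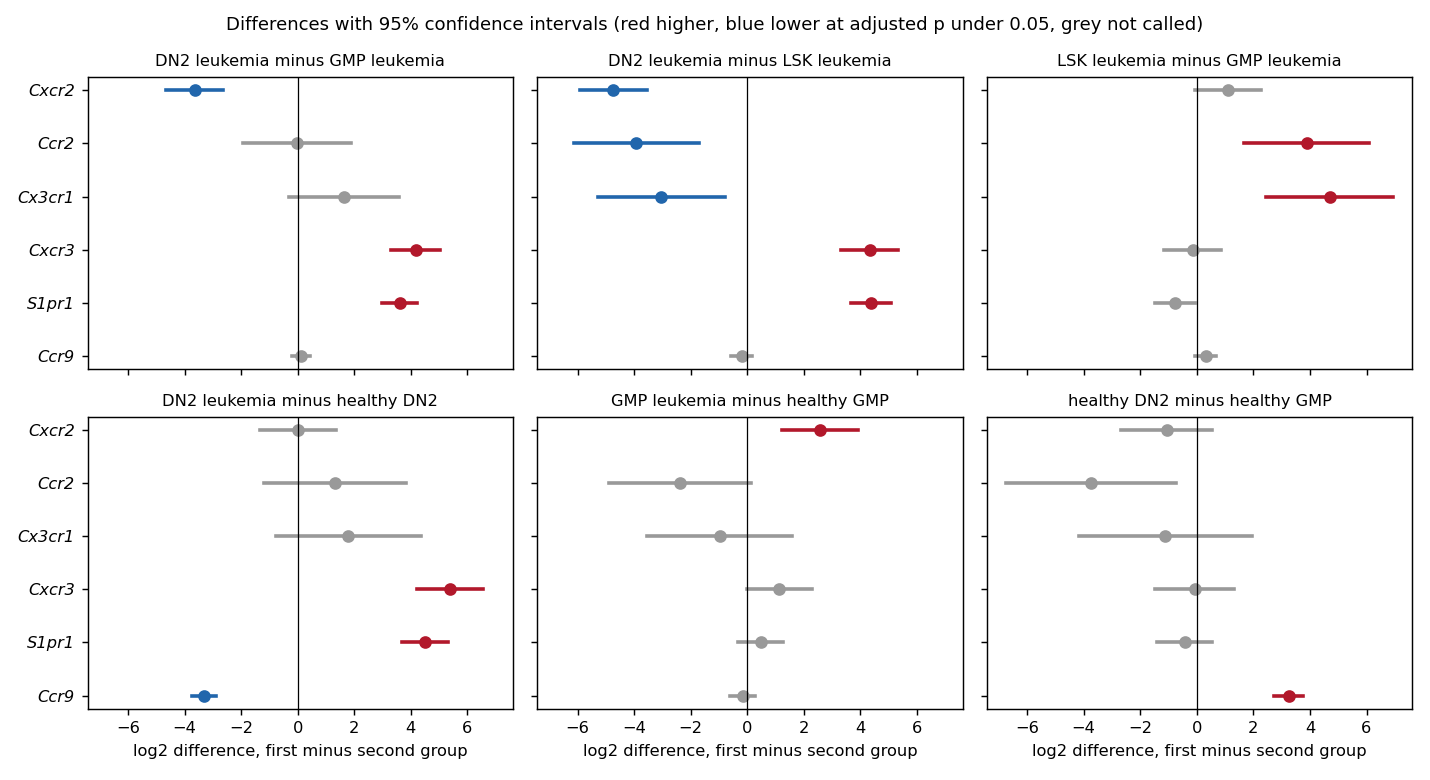
Points are log2 differences between 2 groups (first minus second, as each panel's title states) for the 6 genes tested, with 95% confidence intervals from limma as bars, red where higher and blue where lower at an adjusted p under 0.05 and grey where not called. Cxcr3 and S1pr1 are higher in the DN2-labelled leukemias in the 3 panels with that label, and Ccr9 separates healthy DN2 from the groups it is compared with.

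The change from healthy to leukemic cells was compared between the DN2 and GMP origins with an interaction term, the DN2 change minus the GMP change. Between DN2-labelled leukemias and healthy DN2 3 of the 6 genes were called, 2 higher and 1 lower, where 23.2% of all genes were called, 9.48% higher and 13.7% lower. In the interaction 3 of the 6 were called, 2 higher and 1 lower, against 12.7% of all genes, 6.39% higher and 6.28% lower. Cxcr3 had an interaction of 4.24 ± 0.77 (SE, adjusted p = 0.00186), with a DN2 change of 5.38 and a GMP change of 1.14. For S1pr1 it was 4.04 ± 0.53 (adjusted p = 0.000122), from changes of 4.51 and 0.47. Ccr9 had -3.14 ± 0.28 (adjusted p = 3.01e-06), from changes of -3.30 and -0.16, and as it passed the filter through healthy DN2 alone, with the other 4 groups at background, this call follows from the filter and is no support for a difference between origins. The Cxcr2 change was 0.01 in DN2 and 2.58 in GMP, and its interaction of -2.57 ± 0.89 was not called (interval -4.47 to -0.67, adjusted p = 0.0749). It was called with only the groups compared in the fit (adjusted p = 0.0304), with array weights (-2.89, adjusted p = 0.00015) and without GMP-labelled array 4 (-2.90, adjusted p = 0.0261). Ccr2 (3.70 ± 1.67, adjusted p = 0.178) and Cx3cr1 (2.77 ± 1.70, adjusted p = 0.329) were not called either.

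Some receptor genes varied alike across the 17 arrays. Cxcr3 and S1pr1 had a Pearson correlation of 0.92, Ccr2 and Cx3cr1 one of 0.83, and Cxcr2 and S1pr1 one of -0.55. These are descriptions over arrays that share groups. The tested genes with the highest correlation to Cxcr2 were Ccr1, a receptor for Ccl3 and Ccl5, at 0.984, B430306N03Rik at 0.981 and Lrg1 at 0.979. For Cxcr3 they were Il2rb, a chain of the receptors for IL-2 and IL-15, at 0.959, Hs3st3b1 at 0.953 and the T-cell kinase Txk at 0.953. S1pr1 was followed most closely by Kdf1 at 0.984, Sidt1 at 0.977 and Epha3 at 0.972. Cx3cr1 had Mx1, an interferon-induced antiviral protein, at 0.956, S1pr5, a receptor of NK-cell egress, at 0.938, and Ms4a1 at 0.930. Ccr2 had Glmp at 0.902, Cyp27a1 at 0.898 and Gpld1 at 0.889, and Ccr9 had 1810073O08Rik, Fads2 and Arpp21 at 0.982, 0.982 and 0.981.

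Cx3cr1, Ccr9, Cxcr6 and Ccr2 lie in that order on chromosome 9 in the RefSeq annotation of GRCm38.p6. Between Cx3cr1 and Ccr9 it lists 51 protein-coding genes, between Ccr9 and Cxcr6 it lists Fyco1, and between Cxcr6 and Ccr2 it lists Xcr1, Ccr1, Ccr1l1 and Ccr3. These neighbours differed in their group patterns. Ccr1 had means of 10.43 in the LSK-labelled and 8.65 in the GMP-labelled leukemias, 3.03 in the DN2-labelled ones, 3.01 in healthy DN2 and 4.27 in healthy GMP, which is the order of the group means of Cxcr2 on chromosome 1 and not that of Ccr2. Ccr9 was high in healthy DN2 alone and Cxcr6 at background in all groups.

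Of 22 other chemoattractant receptors on the list, 18 had a probe set and 10 were tested. Between the DN2-labelled and GMP-labelled leukemias 5 of the 10 were lower and 1 was higher, with a median of -1.23 against 0.03 over all genes, of which 18.8% were lower and 21.0% higher. The lower ones included Fpr2, a formyl peptide receptor (-7.49 ± 0.78, SE, adjusted p = 2.31e-06), Ltb4r1, the leukotriene B4 receptor (-6.69 ± 0.27, adjusted p = 5.04e-11), and Ccr1 (-5.62 ± 0.55, adjusted p = 1.25e-06). C5ar1, the complement C5a receptor, also fell (-5.12 ± 0.58, adjusted p = 5.28e-06). Cxcr5, the follicular homing receptor for Cxcl13, was the higher one (3.08 ± 0.42, adjusted p = 3.54e-05), and it was also 2.71 ± 0.56 above healthy DN2 (adjusted p = 0.00255). Between GMP-labelled leukemias and healthy GMP 4 of the 10 were called, each of them higher, with a median of 1.28, beside 21.2% of all genes called, 8.08% higher. They were Fpr2 (8.64 ± 1.04), C5ar1 (5.13 ± 0.77), Ccr1 (4.38 ± 0.73) and Ltb4r1 (1.24 ± 0.35). Between healthy DN2 and healthy GMP, with 11.2% of all genes called, Ltb4r1 was the 1 call, at -4.61 ± 0.42.

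Ligand RNA was measured in the same arrays, for 25 of 27 ligands on the list, of which 17 were tested. Cxcl12 and Ccl25, the ligands of Cxcr4 and Ccr9, had group means of 3.57 to 3.88 and 4.49 to 5.67. Between the DN2-labelled and GMP-labelled leukemias 2 of the 17 were higher and 4 lower, with a median of -0.13, a share near the 39.8% of all genes called there. Ccl5, a chemokine made by cytotoxic lymphocytes, rose by 7.93 ± 0.38 (adjusted p = 4.25e-10) and Xcl1 by 4.10 ± 0.38 (adjusted p = 7.25e-07). Cxcl2, the Cxcr2 ligand, differed by -6.74 ± 0.64 (adjusted p = 8.69e-07), and Ccl6 differed by -4.26 ± 0.77. Cxcl2 was also 4.08 ± 0.85 higher in the GMP-labelled leukemias than in healthy GMP (adjusted p = 0.00374), the same comparison in which Cxcr2 rose. There 1 of the 17 rose and 2 fell, Pf4 (-5.28 ± 0.22) and Ccl9 (-4.23 ± 1.37), against 21.2% of all genes. Pf4 passed the filter on low values through healthy GMP alone (mean 8.64, with means of 3.03 to 3.63 in the other groups). Its call as lower therefore follows from the filter. Between the LSK-labelled and GMP-labelled leukemias 6 were higher and 1 lower, against 26.7% of all genes, and without LSK-labelled arrays 2 and 3 a single one of 18 was called, as higher.

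**Figure D4:**
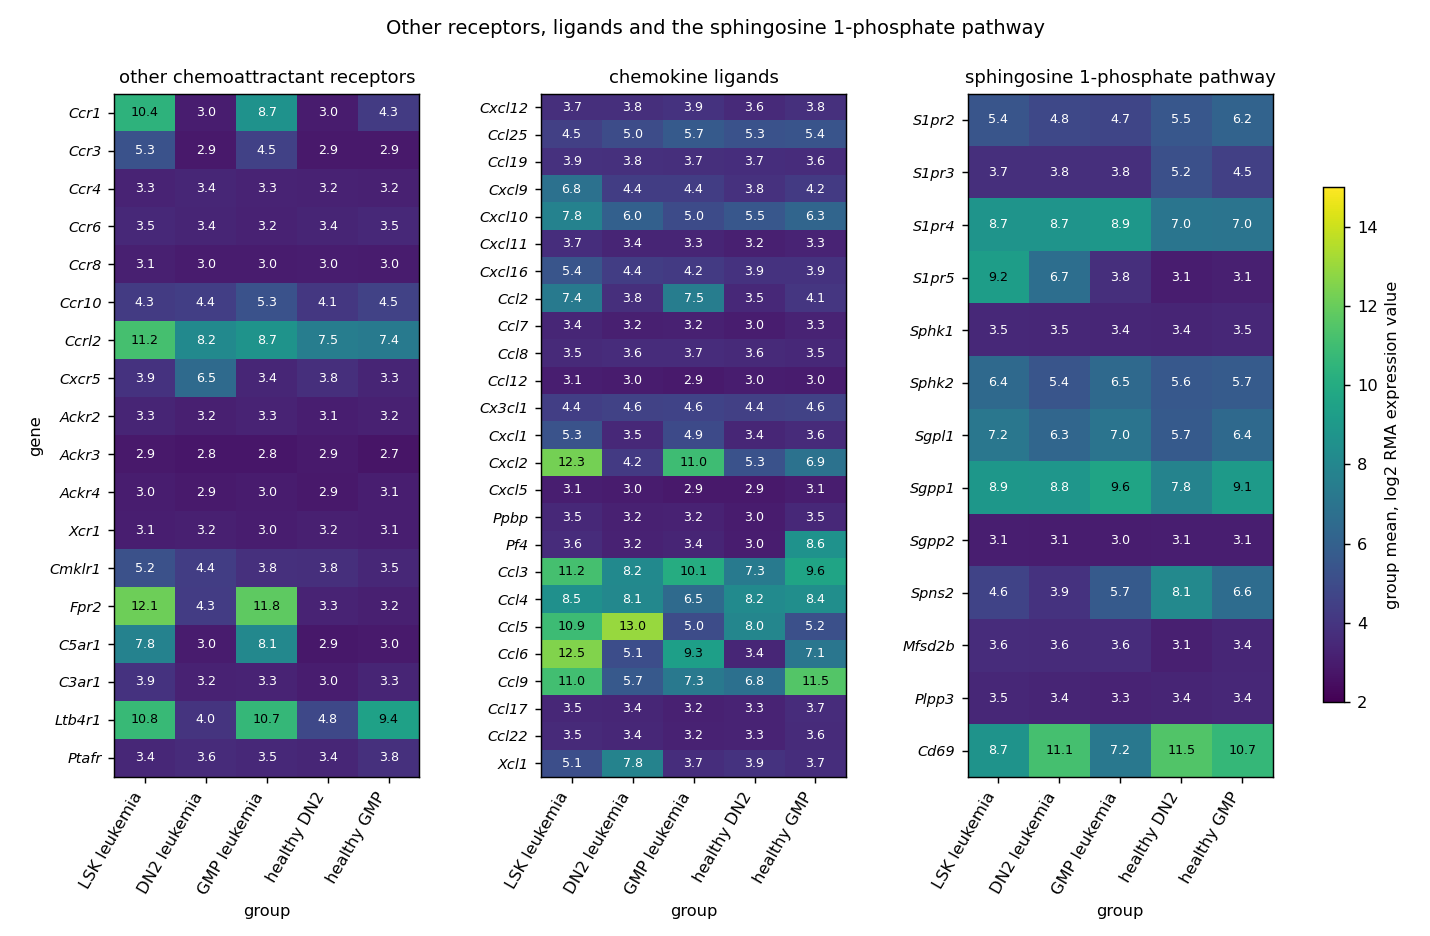
Rows are the measured genes of 3 lists (other chemoattractant receptors, chemokine ligands, sphingosine 1-phosphate pathway), columns are the 5 groups, and colours and printed numbers are group means of log2 RMA expression values, to be compared along a row. Ccr1, Fpr2, C5ar1, Ltb4r1 and Cxcl2 are high in the LSK-labelled and GMP-labelled leukemias, and Cxcr5, Ccl5 and Xcl1 in the DN2-labelled leukemias.

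In the sphingosine 1-phosphate pathway all 13 genes on the list had a probe set and 9 were tested. Where S1pr1 was high, in the DN2-labelled against the GMP-labelled leukemias, 1 of the 9 was higher and 3 were lower, with a median of -0.13, a share near the 39.8% of all genes called there. The higher one was Cd69 (3.93 ± 0.77, SE, adjusted p = 0.000897), whose protein takes S1pr1 off the cell surface. Spns2, an exporter of sphingosine 1-phosphate, differed by -1.78 ± 0.39, the kinase Sphk2 by -1.01 ± 0.19 and the phosphatase Sgpp1 by -0.77 ± 0.13. Against healthy DN2 Spns2 was lower (-4.24 ± 0.52, adjusted p = 2.62e-05) and S1pr4 higher (1.68 ± 0.33), among 2 higher and 2 lower calls, where 23.2% of all genes were called. S1pr4 was likewise higher in the GMP-labelled leukemias than in healthy GMP (1.88 ± 0.33), where S1pr1 was not called. S1pr5 was 5.48 ± 1.41 higher in the LSK-labelled than in the GMP-labelled leukemias (adjusted p = 0.0102), a call that includes LSK-labelled arrays 2 and 3. Its values were 7.51 to 10.53 in the LSK-labelled arrays, 3.38 to 4.13 in the GMP-labelled and 3.17 to 10.66 in the DN2-labelled ones. S1pr5 was among 1 higher and 1 lower call of the 9, where 26.7% of all genes were called, 10.3% higher and 16.5% lower. The median over the 9 was -0.03, and -0.29 without LSK-labelled arrays 2 and 3, which leaves 1 array of that label.

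Of 29 genes for signalling and desensitisation below these receptors 28 were tested. Between the DN2-labelled and GMP-labelled leukemias 5 were higher and 8 lower, with a median of -0.24, a share near the 39.8% of all genes called there. The regulators of G-protein signalling went both ways, with Rgs1 at 5.57 ± 0.80, Rgs16 at 3.61 ± 0.47, Rgs10 at 2.53 ± 0.59 and Rgs18 at -3.98 ± 0.45. Between DN2-labelled leukemias and healthy DN2 6 were higher and 3 lower, beside 23.2% of all genes, led by Rgs18 (-6.83 ± 0.60) and Rgs16 (3.49 ± 0.63). Rgs16 passed the filter on low values through the DN2-labelled leukemias alone (mean 6.51, with means of 2.90 to 3.58 in the other groups). Its calls as higher in that label therefore follow from the filter. Between the LSK-labelled and GMP-labelled leukemias 5 were called, each of them higher, beside 26.7% of all genes, with the receptor kinase Grk3 at 5.51 ± 0.74, and without LSK-labelled arrays 2 and 3 the calls were 2 higher and 1 lower. Against the LSK-labelled leukemias 1 was higher and 16 were lower in the DN2-labelled ones. These counts include LSK-labelled arrays 2 and 3, with low Mycn and Bcl2, and depend on them. Of all genes 47.4% were called there, 28.3% higher and 19.1% lower. The median over the 28 was -0.75, and -0.47 without LSK-labelled arrays 2 and 3, which leaves 1 array of that label.

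Among 16 tested transcription factors known to act on receptor genes, 8 were higher and 3 lower in DN2-labelled than GMP-labelled leukemias, with a median of 1.37, where 21.0% of all genes were higher and 18.8% lower. Eomes (7.18 ± 0.24, adjusted p = 8.89e-12) and Tbx21 (6.69 ± 0.42, adjusted p = 1.09e-08), T-box factors of cytotoxic lymphocytes, rose in this comparison, as Cxcr3 did. Both were also higher in the LSK-labelled than in the GMP-labelled leukemias (Eomes 1.76 ± 0.28, adjusted p = 0.000519, Tbx21 1.77 ± 0.49, adjusted p = 0.0151), where Cxcr3 differed by -0.15 and was not called. Klf2, a known activator of S1pr1 in T cells, rose by 1.75 ± 0.33 (adjusted p = 0.000673), and it was 2.50 ± 0.44 higher than in healthy DN2 (adjusted p = 0.000779). It was likewise higher in the LSK-labelled than in the GMP-labelled leukemias (1.51 ± 0.38, adjusted p = 0.00982), where S1pr1 differed by -0.77 and was not called. The Eomes, Tbx21 and Klf2 differences between these labels include LSK-labelled arrays 2 and 3, and single values without them are not given here. The median over the 16 was 0.54 there, and 0.32 without those arrays, which leaves 1 array of that label. Klf2 differed by 0.24 ± 0.38 (adjusted p = 0.637) between the DN2-labelled and LSK-labelled leukemias, where S1pr1 was 4.38 higher. Runx3 rose by 1.94 ± 0.12, and Spi1, a myeloid factor, differed by -5.03 ± 0.43 (adjusted p = 3.06e-07). Eomes (7.02 ± 0.32) and Tbx21 (6.82 ± 0.56) were also above healthy DN2, among 4 higher and 3 lower calls of the 16, where 23.2% of all genes were called. Whether any of these factors acts on the receptor genes in these cells was not tested.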

How the data were processed

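Total RNA, 300 ng each per the labels' protocols, was amplified and biotinylated for 3' expression arrays. The deposited table holds log2 values that the authors made with RMA and affy, per the submitters' processing notes, for which no version is given in the sources used here. Array medians ran from 3.80 to 3.86. The number of arrays limits the precision.

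Of 45141 probe sets, 104 controls were left out and 28898 had 1 gene symbol in the platform annotation. Each gene took its probe set of highest mean, and 11629 genes with a group mean above 3.83 were tested with limma 3.58.1 (lmFit, eBayes) in R 4.3.3. All 17 arrays entered 1 fit with a mean per group. In each of 7 comparisons p-values were two-sided and adjusted by Benjamini-Hochberg over all genes tested. The fit was first tested on simulated data. Promoters come from RefSeq, and Python 3.11.15 drew the figures.

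The 9 receptors, the gene lists and the alternatives were chosen with earlier results of these data known. Named genes were the receptors, up to 4 genes per pathway list in the comparison described (called ones first, then the largest difference), the 3 genes most correlated with each receptor, and markers that moved with one. Cxcr5 and Klf2 between DN2-labelled and GMP-labelled leukemias, Cxcl12, Ccl25 and the neighbours on chromosome 9 were chosen after their values were seen. Over 25 same-numbered pairs of arrays, deviations from the group means correlated at -0.30 to 0.25, so replicate numbers were not taken to pair arrays.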

Additional observations from a re-analysis of the deposited data

Results flagged for a closer look

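S1pr1 was 6.02 in GMP-labelled leukemia array 1, apart from the other 4 arrays of that group, the nearest of which was 5.55. The gap was 0.719 of the group's range. Chance marks about 1 in 20 groups in this way, and 14 groups of 4 or more arrays were looked at.

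The change from healthy to leukemic cells differed between the DN2 and GMP origins in 3 genes by the interaction term in limma. The difference was 4.24 for Cxcr3, 4.04 for S1pr1 and -3.14 for Ccr9, and each was called. Ccr9 had passed the filter on low values through healthy DN2 alone, with the other 4 groups at background, so its call follows from the filter.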

How the results depend on the processing

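The counts of receptor genes called between DN2-labelled and GMP-labelled leukemias and between DN2-labelled leukemias and healthy DN2 were 3 under every alternative tried. With only the arrays of the groups compared in the fit, or with array weights, 3 genes were called between GMP-labelled leukemias and healthy GMP, and 4 and 3 between the healthy groups. Array weights gave 5 calls in the interaction. Without LSK-labelled arrays 2 and 3, 3 genes were called against the DN2-labelled leukemias and 0 against the GMP-labelled ones, where limma found 0 at an unadjusted p under 0.05. Leaving out 1 array at a time, the counts ran from 4 to 5 between the DN2-labelled and LSK-labelled leukemias, 1 to 3 between the LSK-labelled and GMP-labelled ones, 0 to 1 between GMP-labelled leukemias and healthy GMP (1 at an unadjusted p under 0.05 where it was 0) and 3 to 4 in the interaction, and stayed at 1 between the healthy groups. Of all genes, 4154 to 5799 were called between DN2-labelled and GMP-labelled leukemias, 3222 to 6800 between DN2-labelled and LSK-labelled, 1415 to 4660 between LSK-labelled and GMP-labelled, 1230 to 5885 between DN2-labelled leukemias and healthy DN2, 854 to 6053 between GMP-labelled leukemias and healthy GMP, 606 to 5435 between the healthy groups and 778 to 5241 in the interaction, against 4628, 5515, 3108, 2695, 2463, 1302 and 1473 in the reported fit.

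The differences that turned sign were not called in either fit. Ccr2 between DN2-labelled and GMP-labelled leukemias (-0.04) was 0.23 with the mean of all probe sets and with array weights, and from -0.61 to 0.38 leaving out 1 array at a time. Cxcr3 between LSK-labelled and GMP-labelled leukemias (-0.15) was 0.00274 with the replicate block, 0.53 with Y-linked RNA as a covariate, and from -0.63 to 0.32 leaving out 1 array. Cxcr2 between DN2-labelled leukemias and healthy DN2 (0.01) was -0.065 with the replicate block and from -0.15 to 0.17 leaving out 1 array. Cxcr2 between LSK-labelled and GMP-labelled leukemias was -0.36 without LSK-labelled arrays 2 and 3. Without DN2-labelled arrays 1 and 3, Cx3cr1 differed by -0.20 from GMP-labelled leukemias and by -0.060 from healthy DN2. Leaving out 1 array, Cxcr3 between the healthy groups (-0.07) ran from -0.31 to 0.17, and Ccr9 between GMP-labelled leukemias and healthy GMP (-0.16) from -0.35 to 0.022. The causes were not tested. The replicate block ended 1 call, that of Cx3cr1 between DN2-labelled and LSK-labelled leukemias (-2.41, adjusted p = 0.104), and changed no other call. At values near 3.83 the arrays read background, so differences against such groups are compressed.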
